A study of Mus musculus with 10 samples.

Results

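The genes described here are 10 members of the leukaemia inhibitory factor (LIF) receptor and STAT3 pathway: *Lif*, *Lifr*, *Il6st*, *Jak1*, *Jak2*, *Stat3*, *Socs1*, *Socs2*, *Socs3* and *Pim1*. They are 10 of 20972 genes that had a named probe on the expression array, and they were chosen by name, through the transcript accession that each probe carries. Together they had 15 of 55681 probes, with 3 probes each for *Lifr* and *Socs2*, 2 for *Stat3* and 1 for each of the others.

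All 10 arrays measured RNA of E14 mouse embryonic stem (ES) cells, a line of 129/Ola origin that is kept undifferentiated without feeder cells on gelatin. Every culture was grown in medium with 10% fetal calf serum and 1000 U/ml Lif, so no comparison here contrasts cells with and without the ligand. In the *Hottip* gRNA group (n = 4) and the *Hoxa13* gRNA group (n = 3), a pool of 5 guide RNAs to the promoter of the named gene was transfected together with dCas9-VP160, a nuclease-dead Cas9 fused to copies of a viral activation domain. The control group (n = 3) is labelled as control gRNA, and the methods name non-targeting guides with dCas9 alone for it. The effect of the guides and that of the VP160 domain therefore cannot be told apart in a comparison with the control. Transfected cells were selected with 2 µg/ml puromycin for 24 h and RNA was taken 48 h after transfection, so each sample is a transiently transfected population. Nothing in the labels ties a sample to another beyond calling them biological replicates.

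LIF binds the receptor chain LIFR, which pairs with the shared signal chain gp130, encoded by *Il6st*. Janus kinases bound to both chains phosphorylate STAT3, which then enters the nucleus and activates its targets. In mouse ES cells this route is best known for holding back differentiation in serum cultures. Among the targets are the SOCS proteins, which bind receptors or Janus kinases and shut the signal down, and the kinase PIM1. STAT3 itself is switched on by phosphorylation, so the arrays read the transcripts of the pathway and not its activity.

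STAT dimers are known to recognise the palindrome TTCNNNGAA. This was searched in the RefSeq promoter windows of GRCm38.p6, each running from 250 bases before to 50 bases after an annotated start. Windows were at hand for 9 of the 10 members (11 windows, since *Lifr* and *Pim1* have 2 starts each), and *Socs2* had none. Only the *Socs3* window held the letters, in 1 of 11 windows (9.09%), against 2726 of 32851 windows of all genes (8.30%). A match is a description of letters, not evidence of binding. The *Socs3* match lay at chr11:117969502-117969530 on the minus strand, its middle 150 bases before the start. It is shown because *Socs3* also had the largest positive difference among the tested members between *Hottip* gRNA and control arrays. The window of *Cish*, another SOCS family inhibitor and a known STAT target, held 2 matches, at chr9:107296649-107296677 and chr9:107296660-107296688 on the plus strand. Of all windows, 150 of 32851 (0.457%) held 2 or more. Among the other pathway genes read below, windows of *Gab1* and *Zfp36* also held a match, which is not shown. The *Cish* matches are shown beside that of *Socs3*, with 10 bases on either side of each match and the match in capitals.

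Socs3: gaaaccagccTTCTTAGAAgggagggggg
Cish, first match: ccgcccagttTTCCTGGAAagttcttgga
Cish, second match: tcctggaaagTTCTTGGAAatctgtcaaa

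Levels are given as log2 of the processed spot signal relative to the 75th percentile of the same array, so that a level of 0 is the brightness of the array's 75th percentile and a difference of 1 is a doubling. Each group was compared with each other group by limma over all probes that cleared the scanner's background test on 3 arrays or more, and a probe was called at a Benjamini-Hochberg adjusted p under 0.05. Over all probes, 212 of 22835 were called between the *Hottip* gRNA and control arrays (0.928%), 31 of 22835 between the *Hoxa13* gRNA and control arrays (0.136%) and 143 of 22830 between the *Hottip* and *Hoxa13* gRNA arrays (0.626%). In the last of these 97 were higher and 46 lower, which quantile normalization shifted to 78 and 20. The arrays labelled *Hoxa13* gRNA did not carry the mark of their label. On 4 of 4 *Hottip* gRNA arrays both *Hoxa13* probes were well above background, with levels between 2.58 and 4.16, and on 0 of 3 arrays labelled *Hoxa13* gRNA, where they lay between -5.60 and -3.68, beside -6.12 to -3.46 in the controls. Those 3 arrays are called the arrays labelled *Hoxa13* below, and any direction drawn from them rests on that label. Of these, replicates 1 and 2 were on slide 1, whereas all other arrays were on slide 2. The array's 75th percentile was also dimmer in this group, with signals of 586 to 1086 against 1096 to 2380 in the controls and 948 to 2572 in the *Hottip* gRNA group. Of the ES cell markers, 8 of 8 (*Pou5f1*, *Nanog*, *Sox2* and others) were well above background on all 10 arrays. So were the trophoblast markers *Gcm1* and *Eomes*, the primitive endoderm marker *Gata6* and the blood cell marker *Cd3e*, at mean levels of 5.51, -0.10, 1.38 and -0.25. Of 7 fibroblast markers, *Col3a1* and *Thy1* were well above background on 7 arrays each, *Col1a1* on 4, *Dcn* on 3, *Col1a2* on 1, and *Lum* and *Postn* on 0. Their summed linear level, in multiples of the array's 75th percentile, was 0.869 to 2.66 on the controls, 0.959 to 7.02 on the *Hottip* gRNA arrays and 1.38 to 2.43 on the arrays labelled *Hoxa13*, and its part in the members' values was not tested.

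None of the members was called in any comparison. By limma, 0 of 9 tested members passed between *Hottip* gRNA and control arrays, 0 of 9 between the arrays labelled *Hoxa13* and control, and 0 of 9 between both gRNA groups. At an unadjusted p under 0.05 the counts were 0, 0 and 1 of 9, against 9.66%, 14.1% and 15.3% of all tested probes. The adjusted p of the members ran from 0.593 to 0.998, from 0.381 to 0.965 and from 0.254 to 0.976. The median difference of the 9 members was 0.0067 in the first comparison, -0.066 in the second and 0.047 in the third, beside -0.028, 0.19 and -0.26 over all tested probes. These comparisons share arrays, so their values are not independent of each other. For genes with several probes the counts use the brightest.

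**Figure D1:**
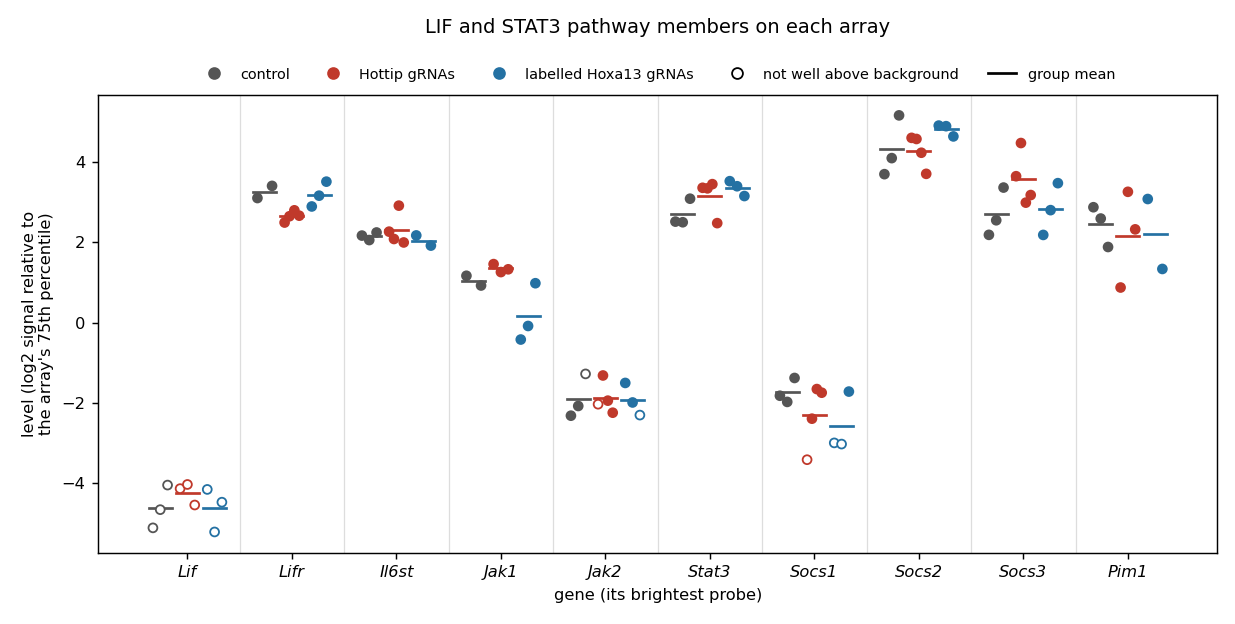
Level of each member's brightest probe on every array, in log2 units relative to the array's 75th percentile, for control (grey), *Hottip* gRNA (red) and labelled *Hoxa13* (blue) arrays; open points were not well above background, bars are group means, and spots flagged as outliers are absent. The groups overlap for most genes, the 4 *Hottip* gRNA arrays lie below the others for *Lifr*, and *Lif* sits at background throughout.

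An absence of calls is not evidence that the groups were alike, and the 95% intervals show what these 10 arrays could resolve. The whole interval lay within 1 log2 unit of 0 for 3 of 9 members between *Hottip* gRNA and control arrays (*Il6st*, *Jak2* and *Socs2*), for 3 of 9 between the arrays labelled *Hoxa13* and control (*Lifr*, *Il6st* and *Jak2*) and for 2 of 9 between both gRNA groups (*Jak2* and *Stat3*). For the other members a doubling or a halving in at least one direction was inside the interval. The widest was that of *Pim1*, from -2.01 to 1.53 for the arrays labelled *Hoxa13* against control.

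**Figure D2:**
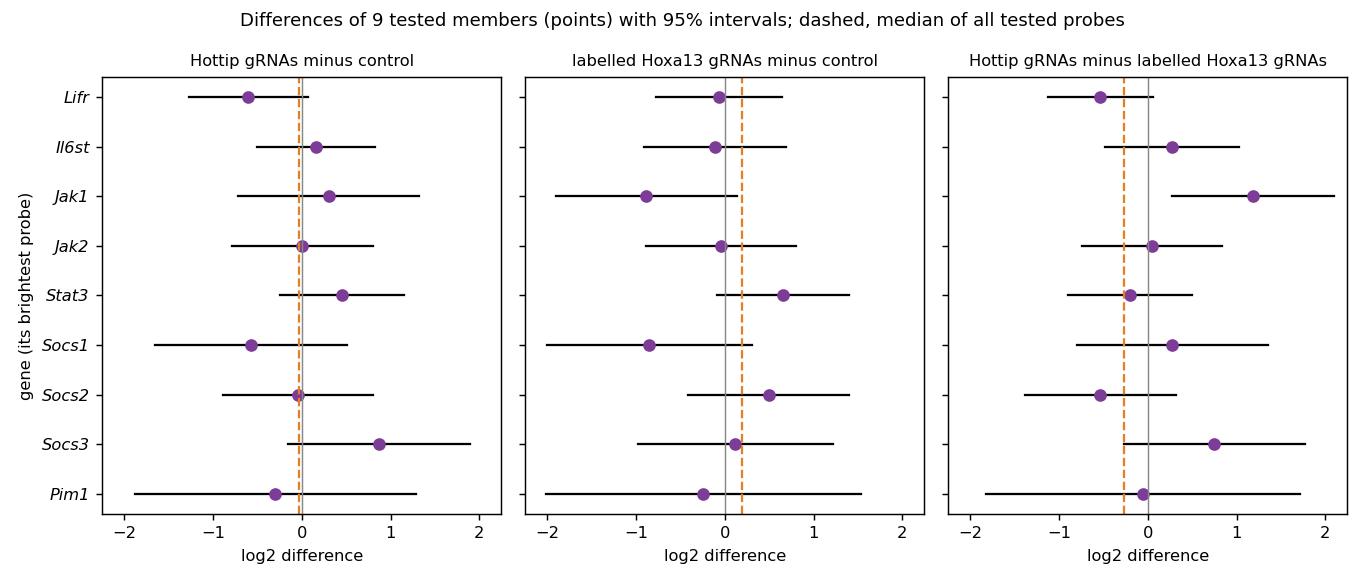
Log2 differences of the brightest probe of the 9 tested members (points) with 95% intervals from limma in the 3 comparisons; the dashed line is the median difference of all tested probes, at -0.028, 0.19 and -0.26. Every interval crosses 0 except that of *Jak1* between both gRNA groups, which runs from 0.27 to 2.10.

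The ligand gene itself was at the array's background. *Lif*, which encodes the cytokine that was also supplied in the medium, had 1 probe. It read -5.11, -4.65 and -4.04 on control replicates 1 to 3, -4.13, -4.03 and -4.54 on *Hottip* gRNA replicates 1 to 3, and -4.15, -5.21 and -4.47 on the arrays labelled *Hoxa13*. On none of these was it well above background. On *Hottip* gRNA replicate 4 the spot was well above background but flagged as an outlier and left out. The probe was therefore not tested, and no fold change is given.

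The receptor chains were well measured. *Lifr*, the ligand-binding chain, was read by a bright probe (A_55_P2159259) at 3.10 and 3.40 on control replicates 1 and 2, while control replicate 3 had an outlier spot there. The *Hottip* gRNA replicates 1 to 4 read 2.49, 2.65, 2.80 and 2.66, and the arrays labelled *Hoxa13* read 2.89, 3.16 and 3.51. All 4 *Hottip* gRNA arrays thus lay below all 5 others on this scale. In the authors' log2 values they lay below the controls (12.825 to 13.134 against 13.631 to 13.991). There they overlapped with the arrays labelled *Hoxa13* (12.25 to 13.908). The difference between *Hottip* gRNA and control arrays was -0.60 ± 0.30 (SE), a ratio of 0.658, with a limma adjusted p of 0.593 and an exact two-sided permutation p of 0.0667, the smallest that 4 against 2 arrays allow. Against the arrays labelled *Hoxa13* it was -0.54 ± 0.26, with an adjusted p of 0.349 and an exact permutation p of 0.0286, the smallest for 4 against 3. All tested probes with a mean level of 2 to 4, the class of this probe, had a median of -0.27 between both gRNA groups. Their quartiles were -0.59 and 0.057, so the *Lifr* difference lay between them. For *Hottip* gRNA against control the median of this class was 0.015 and its lower quartile -0.22, and *Lifr* lay below both. Between the arrays labelled *Hoxa13* and control the *Lifr* difference was -0.066 ± 0.31, and this sign turned with the slide as a block (0.26).

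The remaining probes of *Lifr* pointed the same way, with overlap. The second (A_55_P2159264) is listed under another transcript of the gene. It read -0.71, -0.86 and -0.22 on the controls and -1.89, -0.96, -1.15 and -1.83 on the *Hottip* gRNA arrays, all of which lay below the controls. The difference was -0.86 ± 0.38 with an adjusted p of 0.509 by limma. The arrays labelled *Hoxa13* read 0.14, -0.21 and -1.12, the last of these among the *Hottip* gRNA values, and the difference between both gRNA groups was -1.06 ± 0.38 with an adjusted p of 0.261. The third probe (A_51_P113182) was dim, well above background on 6 of 10 arrays, and differed by -0.49 ± 0.51 between *Hottip* gRNA and control arrays, where the groups overlapped. Across 9 arrays the brightest *Lifr* probe correlated with the others at r = 0.42 and r = 0.41, given as a description.

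*Il6st*, which encodes gp130, the chain shared by the receptors of this cytokine family, varied least. It read 2.17, 2.06 and 2.24 on the controls. The *Hottip* gRNA arrays read 2.26, 2.08, 2.91 and 2.00, so replicate 3 alone stood above the control values by more than their spread. Replicates 1 and 2 labelled *Hoxa13* read 2.17 and 1.92, with the spot of replicate 3 left out as an outlier. Over all 9 arrays measured, the levels spanned 0.99 log2 units. The differences from control were 0.16 ± 0.29 (adjusted p 0.960) for *Hottip* gRNA and -0.11 ± 0.35 (adjusted p 0.897) for the arrays labelled *Hoxa13*.

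Of the Janus kinases, *Jak1* is the one most tied to gp130 signalling. It read 1.17 and 0.92 on control replicates 1 and 2 and 1.46, 1.26 and 1.33 on *Hottip* gRNA replicates 2 to 4, with the spots of control replicate 3 and *Hottip* gRNA replicate 1 left out as outliers. The arrays labelled *Hoxa13* read -0.42, -0.08 and 0.98. The 2 arrays of slide 1 were thus the lowest, and the array of that group on slide 2 lay between both control values. The difference between both gRNA groups was 1.19 ± 0.40, a ratio of 2.28, with an unadjusted p of 0.0172 and an adjusted p of 0.254 by limma, and the groups did not overlap. Within slide 2 alone, which leaves replicate 3 as the only array labelled *Hoxa13*, it was 0.37. Against control, the arrays labelled *Hoxa13* differed by -0.89 ± 0.44 (adjusted p 0.384) over both slides and by -0.064 within slide 2, and the *Hottip* gRNA arrays by 0.30 ± 0.44 (adjusted p 0.944).

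*Jak2*, a related kinase with wider use by cytokine receptors, was dim and level. It was well above background on 7 of 10 arrays. The controls read -2.32, -2.07 and -1.28. The *Hottip* gRNA arrays read -2.03, -1.31, -1.94 and -2.24, and the arrays labelled *Hoxa13* read -1.50, -1.99 and -2.30. All groups overlapped, and the differences from control were 0.0067 ± 0.36 and -0.041 ± 0.38, whose signs turned under other background corrections.

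*Stat3* encodes the transcription factor at the end of the chain. Its brighter probe (A_51_P201480) was printed in 10 spots per array, whose mean read 2.51, 2.50 and 3.08 on the controls. The *Hottip* gRNA arrays read 3.36, 3.34, 3.45 and 2.48. Replicates 1 to 3 lay above all controls and replicate 4 below them, so the groups overlapped, and the difference was 0.46 ± 0.31 (adjusted p 0.772). The arrays labelled *Hoxa13* read 3.52, 3.39 and 3.15, all above the controls. Their difference was 0.66 ± 0.34, a ratio of 1.58, with an adjusted p of 0.381 by limma and an exact permutation p of 0.1, the smallest for 3 against 3. Within slide 2 it was 0.45, and the median difference of all tested probes with a mean level of 2 to 4 was 0.28 in this comparison. The dimmer *Stat3* probe (A_55_P1991219), a single spot listed under another transcript, differed by 0.17 ± 0.40 and 0.11 ± 0.43, with overlap in both. It followed the brighter probe at r = 0.14 over 10 arrays, so the 3 arrays labelled *Hoxa13* were above the controls on 1 of 2 *Stat3* probes only.

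**Figure D3:**
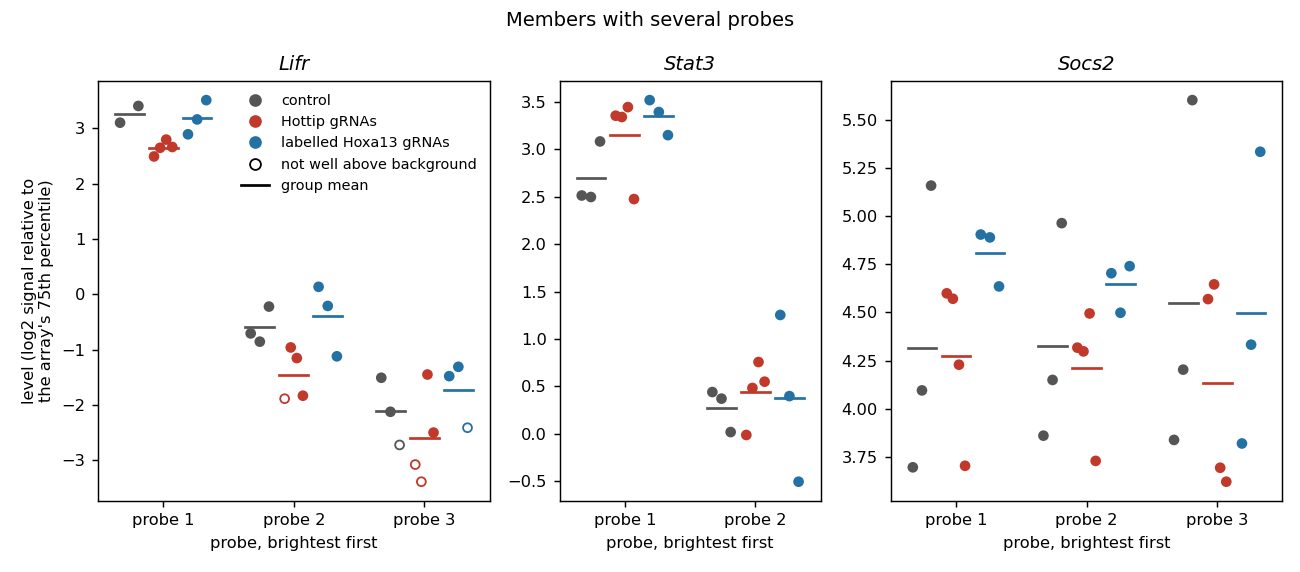
Level on every array of each probe of *Lifr* (3 probes), *Stat3* (2) and *Socs2* (3), in log2 units relative to the array's 75th percentile, with colours, open points and bars for control, *Hottip* gRNA and labelled *Hoxa13* arrays as in the legend. *Lifr* means were lowest on the *Hottip* gRNA arrays for 3 of 3 probes, whereas the order of the groups differed between the *Stat3* probes.

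The inhibitors are encoded by targets of the same pathway. *Socs3*, the feedback inhibitor that binds gp130 and whose promoter match is printed above, read 2.19, 2.55 and 3.36 on the controls. The *Hottip* gRNA arrays read 3.64, 4.47, 2.99 and 3.18, and the arrays labelled *Hoxa13* read 2.18, 2.80 and 3.47. Replicates 1 and 2 of *Hottip* gRNA lay above every control, and replicates 3 and 4 lay among them. In the authors' log2 values all 4 lay above the controls, at 13.031 to 13.895 against 12.535 to 12.73. No alternative led to a call, with a lowest adjusted p of 0.350 by limma. The difference of 0.87 ± 0.46 was the largest of the 9 tested members in that comparison, a ratio of 1.83, with a 95% interval from -0.15 to 1.90, an adjusted p of 0.631 by limma and an exact permutation p of 0.171. Leaving out single arrays moved it between 0.57, without *Hottip* gRNA replicate 2, and 1.20, without control replicate 3. Between the arrays labelled *Hoxa13* and control it was 0.12 ± 0.49 with an adjusted p of 0.923. That sign was turned by quantile normalization (-0.085), by normexp background correction (-0.51) and in the authors' log2 values (-0.48).

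*Socs1*, which blocks Janus kinases directly, was dim and well above background on 7 of 10 arrays. It read -1.82, -1.97 and -1.38 on the controls and -3.41, -2.39, -1.65 and -1.74 on the *Hottip* gRNA arrays, with a difference of -0.58 ± 0.49 (adjusted p 0.849) that became -0.21 without *Hottip* gRNA replicate 1. The arrays labelled *Hoxa13* read -2.99, -3.02 and -1.72. Both of its slide 1 arrays lay below all controls and the array on slide 2 among them, as for *Jak1*. The difference was -0.85 ± 0.52 over both slides (adjusted p 0.441) and 0.0076 within slide 2.

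*Socs2*, best known as an inhibitor of growth hormone signalling, was bright on all 10 arrays. Its brightest probe (A_55_P1992834) read 3.70, 4.09 and 5.16 on the controls, which spanned more than the other groups. The *Hottip* gRNA arrays read 4.60, 4.57, 4.23 and 3.70. The arrays labelled *Hoxa13* read 4.90, 4.89 and 4.63 and so lay above all *Hottip* gRNA arrays, without overlap. The difference between both gRNA groups was -0.53 ± 0.38 (adjusted p 0.484), beside a median of -0.65 over all tested probes with a mean level over 4. The probe in 10 spots (A_51_P107362) gave -0.44 ± 0.32, also without overlap, and the third (A_55_P1992838) -0.36 ± 0.52 with overlap. Against control the brightest probe differed by -0.041 ± 0.38 for *Hottip* gRNA and 0.49 ± 0.41 for the arrays labelled *Hoxa13* (adjusted p 0.560). The first sign turned with centring on the median (0.28) and the second with quantile normalization (-0.15). Both of the brighter probes followed each other at r = 0.91 over 10 arrays.

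*Pim1*, a kinase gene that STAT3 activates, had the widest spread. It read 2.87, 2.59 and 1.88 on the controls, 0.87, 3.26 and 2.32 on *Hottip* gRNA replicates 1, 3 and 4, and 3.08 and 1.34 on replicates 1 and 3 labelled *Hoxa13*. Both gRNA groups enclosed the control range. The spots of replicate 2 in each gRNA group were left out as outliers. The differences from control were -0.30 ± 0.69 (adjusted p 0.973) and -0.24 ± 0.77 (adjusted p 0.898), and the sign of the first turned with centring on the median (0.21).

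Groups without overlap were counted for the same 9 members, on their brightest probes. There were 2 of 9 between *Hottip* gRNA and control arrays (*Lifr*, lower, and *Jak1*, higher), where 13.7% of all tested probes did not overlap. There was 1 of 9 between the arrays labelled *Hoxa13* and control (*Stat3*), against 23.9%, and 3 of 9 between both gRNA groups (*Lifr*, *Jak1* and *Socs2*), against 17.7%. In the authors' log2 values the 3 separations between both gRNA groups were lost, as was that of *Jak1* from control. Those of *Lifr* and *Stat3* from control remained, and *Socs3* was then higher without overlap on the *Hottip* gRNA arrays than in either other group. The shares of all tested probes given here are for the main levels only. How common such separations were among all probes in the authors' log2 values was not tested.

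Brightness moved with the comparisons. For the arrays labelled *Hoxa13* against control, the median difference rose from -0.077 for tested probes with a mean level under -2 to 0.82 for those over 4, and between both gRNA groups it went from -0.12 to -0.65. For *Hottip* gRNA against control it went from -0.15 to 0.21. The *Socs2* difference of 0.49 thus lay below the median of equally bright probes, and *Lifr*, *Il6st*, *Socs3* and *Pim1* lay below the median of 0.28 for their class in the same comparison. Its part in the members' values was not tested.

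**Figure D4:**
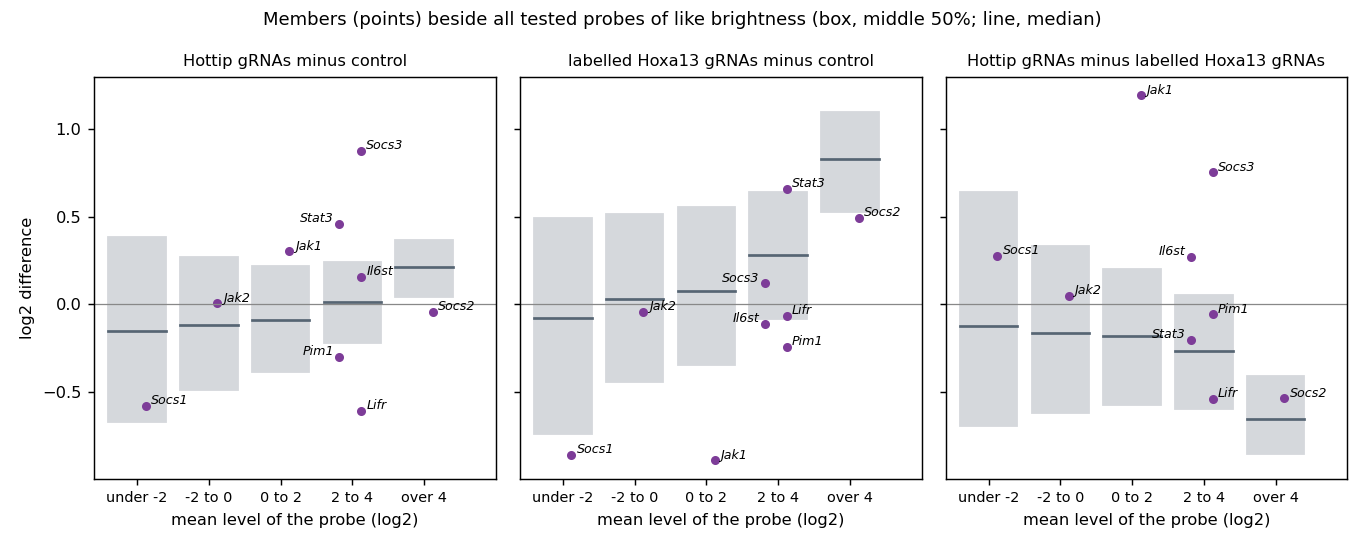
Log2 difference of the 9 tested members (points, brightest probes) in the 3 comparisons, placed by the mean level of the probe over all arrays; boxes hold the middle 50% of all tested probes of that class and lines their medians. The medians climb with brightness to 0.82 for the arrays labelled *Hoxa13* against control and drop to -0.65 between both gRNA groups.

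The wider pathway was read through 57 genes in 6 lists, of which 47 were tested. By limma, 0 of 47 were called in each comparison, and 10, 7 and 13 of 47 had an unadjusted p under 0.05, against the 9.66%, 14.1% and 15.3% of all tested probes given above. In the *Hottip* gRNA arrays against control, 3 of these 10 were higher and 7 lower. The median difference of the 47 genes was -0.016 in that comparison and 0.067 for the arrays labelled *Hoxa13*, beside -0.028 and 0.19 over all tested probes. The genes named below have the largest positive and the largest negative difference of each list against control, apart from 1 negative one among the ligands.

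Among other ligands and receptors of the interleukin-6 family, 7 of 12 were tested. *Cntfr*, the receptor chain for ciliary neurotrophic factor, read between -2.11 and -0.84 on the *Hottip* gRNA arrays and between -0.22 and 3.00 on the controls, a difference of -2.26 ± 0.78 without overlap (adjusted p 0.340). The controls alone spanned more than this difference. *Il6ra*, the interleukin-6 receptor chain, was dim, and its difference was 0.90 ± 0.34 (adjusted p 0.395). *Cntf* differed by 0.15 ± 0.31. For the arrays labelled *Hoxa13* against control, the ends of these lists were *Cntf* (0.30 ± 0.33) and *Ctf1* (-0.36 ± 0.32) for ligands, and *Il27ra* and *Il11ra1* (-0.26 ± 0.28) for receptors. *Il27ra* was well above background on 3 of 3 arrays labelled *Hoxa13* but on 1 of 3 controls and no *Hottip* gRNA array, so it entered the test mainly through the group where it is higher. Its levels were -2.39 to -1.57 on the arrays labelled *Hoxa13* and -3.33 to -2.42 on the controls (adjusted p 0.357).

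Of 8 other Janus kinases and STAT factors, 6 were tested. *Stat4*, a STAT best known from lymphocytes, came closest to a call in all 6 lists. It read 0.66 to 1.11 on the controls, -0.16 to 0.60 on the arrays labelled *Hoxa13* and -0.92 to -0.29 on the *Hottip* gRNA arrays, so that no group overlapped with another. Its difference between *Hottip* gRNA and control arrays was -1.40 ± 0.29, with a limma adjusted p of 0.0611 and an exact permutation p of 0.0286. For the arrays labelled *Hoxa13* against control it was -0.72 ± 0.31 (adjusted p 0.341). *Jak3* had the largest positive value for *Hottip* gRNA (0.24 ± 0.34) and *Stat5b* for the arrays labelled *Hoxa13* (0.51 ± 0.35).

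All 12 other inhibitors were tested. *Socs7* stood highest in both comparisons with the control, by 0.81 ± 0.75 (adjusted p 0.868) for *Hottip* gRNA and 2.10 ± 0.80 (adjusted p 0.323) for the arrays labelled *Hoxa13*, over control values from -1.21 to 1.28. The *Hottip* gRNA arrays read 0.60 to 1.76 and the arrays labelled *Hoxa13* 0.61 to 3.64, so both overlapped with the controls. *Pias3*, an inhibitor of STAT3 binding to DNA, was lowest for *Hottip* gRNA at -0.75 ± 0.38. The phosphatase gene *Ptpn2* was lowest for the arrays labelled *Hoxa13* at -1.20 ± 0.55, with levels there from 0.70 to 3.15.

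LIF receptors also feed the SHP2, MAP kinase and PI3 kinase branches, whose list had 9 of 10 genes tested. *Ptpn11*, which encodes SHP2, had the largest positive value for *Hottip* gRNA (adjusted p 0.914), with levels from 3.11 to 3.86 against 0.61 to 3.12 on the controls. *Rps6ka1*, a kinase below ERK, had the largest negative one, -2.14 ± 0.74 (adjusted p 0.353). For the arrays labelled *Hoxa13*, *Mapk3*, which encodes ERK1, read 4.21 to 4.88 against 3.24 and 3.46 on 2 controls, a difference of 1.13 ± 0.37 (adjusted p 0.312), and *Akt1* read lower by -1.05 ± 0.40 (adjusted p 0.321).

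Genes known to respond to LIF or STAT3 in ES cells form the last list, with 13 of 15 tested. The median difference was 0.18 for *Hottip* gRNA and 0.35 for the arrays labelled *Hoxa13*. *Klf4*, a naive pluripotency factor, differed by 0.81 ± 0.60 (adjusted p 0.812) for *Hottip* gRNA, with control values from 1.58 to 3.43. *Pim2*, a relative of *Pim1*, was lowest there at -0.87 ± 0.29 (adjusted p 0.324), with 3 *Hottip* gRNA arrays between 0.92 and 1.48 and the controls between 1.94 and 2.21. For the arrays labelled *Hoxa13*, the ends were *Pim3* (1.60 ± 0.95, from 2 arrays in each group) and *Bcl3* (-0.55 ± 0.45).

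**Figure D5:**
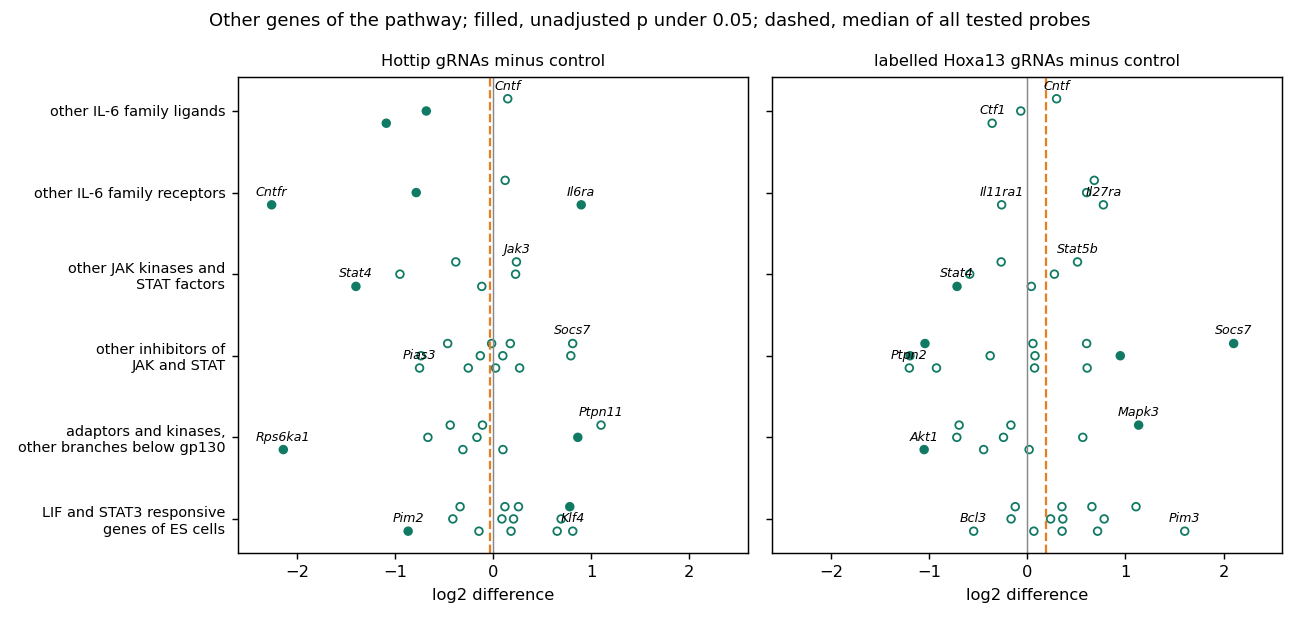
Log2 differences from control of the 47 tested genes in 6 lists of the wider pathway, for *Hottip* gRNA (left) and labelled *Hoxa13* (right) arrays; filled points have an unadjusted p under 0.05, the ends of each list are named except 1 among the ligands, and the dashed line is the median of all tested probes. No gene was called at an adjusted p under 0.05, and *Stat4* at -1.40 had the smallest adjusted p.

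Of the marker lists of other lineages, 2 genes were called between *Hottip* gRNA and control arrays, 1 of 4 tested trophoblast markers and 1 of 6 primitive endoderm markers, beside 0.928% of all tested probes. The same counts were called between both gRNA groups, beside 0.626% of all tested probes. *Cdx2*, a trophoblast and posterior regulator, cleared background on every *Hottip* gRNA array, on 1 of 3 arrays labelled *Hoxa13* and on 0 of 3 controls. Only a bound can therefore be given. Its mean level was 0.32 against a measured -3.74, and it was at least 14.3-fold higher than the dimmest probe well above background on each control array. It entered the test only through the group where it is higher, so its adjusted p of 0.000684 by limma adds no support. Of the other tested trophoblast markers, *Tfap2c* differed by 3.28 ± 0.74 (adjusted p 0.105 by limma), *Eomes* by 0.88 ± 0.32 (adjusted p 0.372) and *Gcm1* by 0.17 ± 0.68, none of them called. *Gata6*, a primitive endoderm factor, was above background on all 10 arrays and higher by 1.66 ± 0.32 log2 units (adjusted p 0.0491). Of the other primitive endoderm markers, *Gata4*, *Sox17* and *Sox7* differed by 0.58, 0.49 and 0.31, none of them called. *Dab2* differed by -3.35 ± 1.46 (unadjusted p 0.0446, adjusted p 0.502) and *Pdgfra* by -0.18 ± 0.29. The arrays labelled *Hoxa13* differed from control by -2.80 ± 1.56 for *Dab2*, so both gRNA group means lay below that of the controls. Control replicate 3 stood apart in that list, with a summed linear level of 80.1 against 4.05 and 3.23 on the other controls and 4.89 to 9.54 on the *Hottip* gRNA arrays. Only 3 of 6 markers were well above background on it, against 6 and 5 on control replicates 1 and 2. *Gata6* read at most 1.11 on the controls, so other markers of the list held most of that sum. Without control replicate 3 the *Socs3* difference from control was 1.20, and the brightest *Lifr* probe had no value on that array. The summed linear level of the 8 ES cell markers was 137 to 286 on the *Hottip* gRNA arrays, 316 to 409 on the arrays labelled *Hoxa13* and 120 to 393 on the controls. Their mean levels ran from 4.05 to 5.36. Against control their median difference was 0.19 for *Hottip* gRNA and 0.97 for the arrays labelled *Hoxa13*, and between both gRNA groups -0.79. All tested probes with a mean level over 4 had medians of 0.21, 0.82 and -0.65. The part of brightness in these sums was not tested. In bulk RNA, fewer cells of a type and less RNA per cell cannot be told apart, and the part of these markers in the *Lifr* or *Socs3* values was not tested.

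The genes whose levels ran most like those of *Socs3* over 10 arrays, among 5050 genes well above background on all of them, were *Zic2* (r = 0.93, rho = 0.90), *Phf11d* (r = 0.84, rho = 0.78) and *Rbm7* (r = 0.83, rho = 0.67). For *Lifr*, over the 9 arrays on which its brightest probe was measured and 5051 genes, they were *Arxes2* (r = 0.96, rho = 0.97), *Rhpn2* (r = 0.93, rho = 0.93) and *Mcf2* (r = 0.92, rho = 0.98). These are descriptions over a few arrays that share slides and scaling, picked as the highest among all genes compared.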

How the data were processed

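RNA of 10 cultures was hybridised to 1-colour Agilent mouse arrays. Per the file headers, the authors extracted spot intensities with Agilent Feature Extraction 11.5.1.1 (background correction, with detrending on 8 of 10 arrays) against build mm9. The arrays not detrended were *Hottip* gRNA replicates 3 and 4, so this step differed between that group and the others. The deposited value table holds log2 values of the same arrays, for which the submitters' processing notes name limma. Its exact normalization is not given in the sources used here. The members and gene lists were chosen with earlier results of these data known.

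The processed signal was taken as log2 and each array's 75th percentile over non-control spots subtracted. Spots flagged as outliers were dropped, saturated spots kept, and spots of a probe averaged. The 22844 probes that cleared background on 3 arrays or more were fitted by limma 3.58.1 in R 4.3.3 over all 10 arrays without covariates, with Benjamini-Hochberg adjustment and 95% intervals. A gene in a list was read by its brightest probe. Named were all members, and of other lists any called gene or else the largest rise and fall against control, of which 1 gene is not reported here. Single members were also compared by exact two-sided permutation over arrays. Probes were named through RefSeq accessions, and 27656 of 55681 matched a gene. The script was tested on simulated data. Arrays carry no read depth, so their number limits the precision, and p-values measure the spread between these cultures. Alternatives were the scaling, background correction, deposited log2 values, filter, slide, replicate number, samples fitted, intensity trend, mean over probes and single arrays. The files held no mean spot signal, so normexp used the median signal. After the data were seen, 4 were added: outlier spots kept, the percentile over spots not flagged, normexp with quantile normalization, and leaving out both arrays that were not detrended. Promoter windows came from RefSeq (GRCm38.p6), and figures were drawn with matplotlib.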

Additional observations from a re-analysis of the deposited data

Results flagged for a closer look

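Among 26 probes of members and named list genes that were measured on all 4 *Hottip* gRNA arrays, 2 had an array far from the other 3, and chance alone marks about 1 in 20. The brighter *Stat3* probe read 2.48 on *Hottip* gRNA replicate 4, against 3.34 to 3.45 on replicates 1 to 3, a gap of 0.892 of the group's whole range. *Stat5b* read 0.69 on *Hottip* gRNA replicate 3, and its gap was 0.869 of the range from -0.22 to 0.69. Without replicate 4 the *Stat3* difference from control was 0.68 instead of 0.46.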

How the results depend on the processing

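No member was called under any alternative, in any comparison. Signs were less stable, all of them on differences whose intervals included 0, and the cause was not tested. In what follows the comparisons are A, *Hottip* gRNA minus control, B, arrays labelled *Hoxa13* minus control, and C, *Hottip* gRNA minus arrays labelled *Hoxa13*. Quantile normalization turned *Socs2* (-0.15) and *Socs3* (-0.085) in B and *Stat3* (0.088) and *Pim1* (0.25) in C. Centring on the median turned *Socs2* (0.28) and *Pim1* (0.21) in A and *Stat3* (0.090) and *Pim1* (0.34) in C, and it moved the median of all tested probes from -0.028 to 0.28 in A and from -0.26 to 0.042 in C. Normexp background correction turned *Jak2* in A (-0.13), B (0.020) and C (-0.15), *Socs3* in B (-0.51) and *Pim1* in C (0.064). The authors' log2 values turned *Jak2* in A (-0.34) and C (-0.25), *Socs2* (-0.084) and *Socs3* (-0.48) in B, and *Stat3* (0.062) and *Pim1* (0.27) in C. Normexp with quantile normalization, added after seeing the data, turned *Jak2* in A (-0.24) and C (-0.12), *Socs2* (-0.096) and *Socs3* (-0.62) in B, and *Stat3* (0.055) and *Pim1* (0.32) in C. Slide as a block and slide 2 alone both turned *Lifr* (0.26) and *Socs1* (0.0076) in B, and *Stat3* (0.0046), *Socs1* (-0.58) and *Pim1* (0.81) in C. Outlier spots kept turned *Il6st* in B (0.062). The percentile over spots not flagged turned *Lifr* in B (0.091) and *Pim1* in C (0.063). Leaving out both arrays that were not detrended turned *Socs2* in A (0.27) and *Socs1* in C (-0.32). The mean of all probes of a gene turned *Lifr* in B (0.20).

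Leaving out single arrays turned signs in A for *Il6st* (-0.041 to 0.26), *Jak2* (-0.21 to 0.31), *Socs2* (-0.35 to 0.38) and *Pim1* (-0.85 to 0.34). In B it did so for *Lifr* (-0.23 to 0.086), *Il6st* (-0.24 to 0.015), *Jak2* (-0.26 to 0.27), *Socs3* (-0.21 to 0.45) and *Pim1* (-1.11 to 0.63), and in C for *Jak2* (-0.14 to 0.26), *Stat3* (-0.30 to 0.026) and *Pim1* (-0.93 to 0.81). With the sign kept, it moved values by over 1.5 times in A for *Jak1* (0.18 to 0.42), *Socs1* (-0.79 to -0.21) and *Socs3* (0.57 to 1.20), in B for *Socs1* (-1.28 to -0.63) and *Socs2* (0.18 to 0.91), and in C for *Il6st* (0.070 to 0.40), *Socs1* (0.055 to 0.71), *Socs2* (-0.64 to -0.34) and *Socs3* (0.43 to 1.08).

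The count of called probes over the whole array moved more. In A it was 212, and it became 81 with centring on the median, 99 with normexp, 107 with the authors' log2 values, 119 with no filter, 46 with the filter on all 10 arrays, 523 with slide as a block, 111 with normexp and quantile normalization and 74 without both arrays not detrended. In B it was 31, and it became 59 with centring, 16 with no filter, 1 with the filter on all 10 arrays, 113 with slide as a block, 55 on slide 2 alone and 20 with outlier spots kept. In C it was 143, and it became 49 with centring, 65 with normexp, 31 with no filter, 38 with the filter on all 10 arrays, 68 on slide 2 alone, 55 with only both groups compared in the fit, 86 with normexp and quantile normalization and 38 without both arrays not detrended. Leaving out single arrays gave 86 to 226 in A, 5 to 78 in B and 30 to 260 in C, lowest without control replicate 2 in A and B.

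The replicate numbers are shared by the groups. Same-numbered arrays deviated from their group means with correlations from -0.31 to 0.084 over 9 pairs, so the numbers pair nothing that the data show. With a replicate block, 30, 2 and 11 probes were called in A, B and C and again no member, and the block turned *Jak1* (-0.081) and *Socs2* (0.15) in A, *Il6st* (0.034) in B and *Stat3* (0.026) in C.

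Arrays limit what can be seen here: *Lif* was at background, *Jak2* and *Socs1* near it, and each member's probe was a single spot except 1 probe each of *Stat3* and *Socs2*, so that 1 outlier spot removed an array for 5 members.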
